A study of Mus musculus with 4 samples.

Results

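The 10 genes examined here were grouped as genes of fetal liver macrophages, and whether other cells held their RNA was not tested. Their values were read in LSK cells, the lineage-negative, Sca1+, cKit+ cells that hold hematopoietic stem cells and early progenitors. The genes were *Cd5l*, *Marco*, *Msr1*, *Mrc1*, *Timd4*, *Mertk*, *Axl*, *Vsig4*, *Adgre1* and *Cd68*. They were selected on these arrays, from values already known to be higher in *Ddb1*-deficient than in control cells. The values that compare the genotypes are therefore a description, with no test. A probe set, a group of short probes for 1 transcript, was taken where its only gene name was 1 of the 10 names, with *Adgre1* under its older name *Emr1*. This gave 9 genes and 14 probe sets of the 20523 genes and 45037 probe sets compared. The only probe set for *Vsig4* also named a second locus, so its values are given but it was not counted.

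Macrophages of the fetal liver form the core of the erythroblastic islands, where red cell precursors mature around them, and they take up the nuclei that these precursors expel. Scavenger receptors bind modified lipoproteins, bacterial surfaces and cell debris and carry them to the lysosome. Other receptors recognise phosphatidylserine, the lipid that dying cells expose, either directly, as TIM-4 does, or through a bridging ligand, as the TAM receptor kinases do. A sort for LSK cells is meant to leave mature macrophages out.

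RNA came from LSK cells sorted from fetal livers of C57BL/6x129 embryos at E16.5. Ddb1-deficient cells were DDB1 flox/flox, VavCre+ and control cells were DDB1 flox/flox, VavCre-, with 2 arrays each, so that both groups carried the floxed alleles. Cre under the Vav1 promoter is active in mature blood cells as well as in progenitors, so that the deletion is not limited to LSK cells. The lettering inside the study's heat map of these cells heads the controls as carrying Cre, while the labels, which were followed, give them without it. The sources used here do not state whether a sample held 1 embryo or several. By *Xist* and *Kdm5d*, given below, the 2 arrays of a group differed in sex, so they were not repeats of 1 sample. How much of the spread between them was technical was not tested.

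Each value is the log2 of the RMA intensity, the background-corrected and normalised brightness of a probe set, so that differences below are log2 fold changes of Ddb1-deficient over control. The median probe set lay at 2.08, and a gene near this level was dim. Array medians were 2.072 and 2.085 in Ddb1-deficient cells and 2.026 and 2.046 in control cells. The Ddb1-deficient arrays correlated across probe sets at r = 0.940 (Pearson) and the control arrays at r = 0.970. Ddb1-deficient array 1 correlated with each control array at r = 0.944, and Ddb1-deficient array 2 at r = 0.932 and 0.933. Over all probe sets, Ddb1-deficient array 1 was thus no closer to the other Ddb1-deficient array than to the controls. *Ddb1* itself was at 4.58 and 4.33 in Ddb1-deficient cells and at 6.06 and 6.26 in control cells. The Y-linked gene *Kdm5d* was at 6.86 on Ddb1-deficient array 1 and 1.67 on array 2, and at 7.40 on control array 1 and 1.43 on array 2. *Xist*, the RNA that coats the inactive X chromosome, was at 2.15 and 9.96 in Ddb1-deficient cells and at 1.93 and 10.09 in control cells, so array 1 of each group was male and array 2 female. *Kit* and *Ly6a*, which encode the cKit and Sca1 of the sort, were above the median probe set on all 4 arrays. *Kit* was at 6.41 and 5.63 in Ddb1-deficient cells and 6.18 and 6.40 in control cells. *Ly6a* was at 7.01 and 6.84 in Ddb1-deficient cells and 7.30 and 6.32 in control cells, so neither sort marker separated the groups on the probe set used. The second *Kit* probe set differed between the groups in the opposite direction from the first.

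Of the 8 windows found for the 10 genes, 6 hold the core of the sites bound by PU.1 and Spi-C, related ETS factors of macrophages. Promoters of 4 genes, picked from these 6, are shown. Whether the members share a regulator was not tested. Each window runs from 250 bases before to 50 bases after the transcription start, 5′ to 3′ in the direction of the gene, from RefSeq on GRCm38.p6. Capitals mark the core, GAGGAA, or its reverse complement, TTCCTC.
Cd5l (chr3:87357631-87357930, plus strand): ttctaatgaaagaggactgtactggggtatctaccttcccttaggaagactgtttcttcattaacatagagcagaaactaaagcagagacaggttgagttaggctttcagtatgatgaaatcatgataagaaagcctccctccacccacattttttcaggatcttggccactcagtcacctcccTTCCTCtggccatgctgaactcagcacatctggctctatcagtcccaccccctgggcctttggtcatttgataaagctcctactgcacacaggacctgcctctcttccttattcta
Marco (chr1:120504975-120505274, minus strand): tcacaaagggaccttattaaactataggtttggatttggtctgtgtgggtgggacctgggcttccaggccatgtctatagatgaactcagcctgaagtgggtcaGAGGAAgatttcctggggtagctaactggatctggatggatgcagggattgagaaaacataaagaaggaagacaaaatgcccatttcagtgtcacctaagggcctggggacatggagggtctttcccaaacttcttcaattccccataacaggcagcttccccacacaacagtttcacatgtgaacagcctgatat
Mrc1 (chr2:14229164-14229463, plus strand): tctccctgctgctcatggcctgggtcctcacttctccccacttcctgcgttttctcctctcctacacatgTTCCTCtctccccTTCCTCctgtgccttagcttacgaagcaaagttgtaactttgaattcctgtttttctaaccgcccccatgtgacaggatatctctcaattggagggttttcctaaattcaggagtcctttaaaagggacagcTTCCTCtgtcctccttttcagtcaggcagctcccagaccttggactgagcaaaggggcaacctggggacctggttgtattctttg
Axl (chr7:25788684-25788983, minus strand): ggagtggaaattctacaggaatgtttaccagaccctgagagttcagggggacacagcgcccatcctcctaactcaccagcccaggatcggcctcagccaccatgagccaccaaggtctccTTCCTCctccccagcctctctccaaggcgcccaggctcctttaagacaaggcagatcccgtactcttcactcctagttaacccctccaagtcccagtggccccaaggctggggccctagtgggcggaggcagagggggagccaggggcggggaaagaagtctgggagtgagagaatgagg
The core was searched on both strands and lies in 28.3% of all 32851 windows. Besides the 4 shown it was present for *Cd68* and *Vsig4*, and it was not found in the windows of *Mertk* and *Timd4*. Relative to the start it began at -146 in *Marco*, at -66 in *Cd5l* and at -130 in *Axl*. *Mrc1* held 3 copies, beginning at -180, -167 and -35. A motif of the MAF factors, TGCTGA or TCAGCA, occurred in *Cd5l*, *Timd4* and *Vsig4*, against 19.5% of all windows. An E-box bound by the lysosomal MiT-TFE factors, CATGTG or CACATG, occurred in *Marco*, *Mrc1* and *Timd4*, against 14.2% of all windows. In *Marco* its 2 matches overlap and are 1 stretch read on both strands, and no match of 1 motif overlapped a match of another. These matches are letters in a window and are not evidence of binding.

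In all 9 genes the lower Ddb1-deficient value exceeded the higher control value, which was the case for 4630 of the 20523 genes (22.6%), and nothing is read from this count because these arrays chose the genes. Their median log2 difference was 2.57, with a range of 1.76 to 3.18, beside 0.03 over all genes and -0.05 over the 11720 genes above the median probe set. Between 98.45% and 99.81% of all genes had a smaller difference than each of them. With limma and Benjamini-Hochberg adjustment over all genes, 0 of 20523 genes passed an adjusted p of 0.05 (0%), members included, and the smallest adjusted p was 0.132. At an unadjusted p under 0.05, limma gave 1006 genes as higher in Ddb1-deficient cells (4.90%) and 1241 as lower, and the test of the methods gave 916 as higher (4.46%) and 768 as lower. An exact permutation of 2 against 2 arrays cannot give a two-sided p below 0.333. In sorted bulk cells, more cells of a type and more RNA per cell cannot be told apart.

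**Figure D1:**
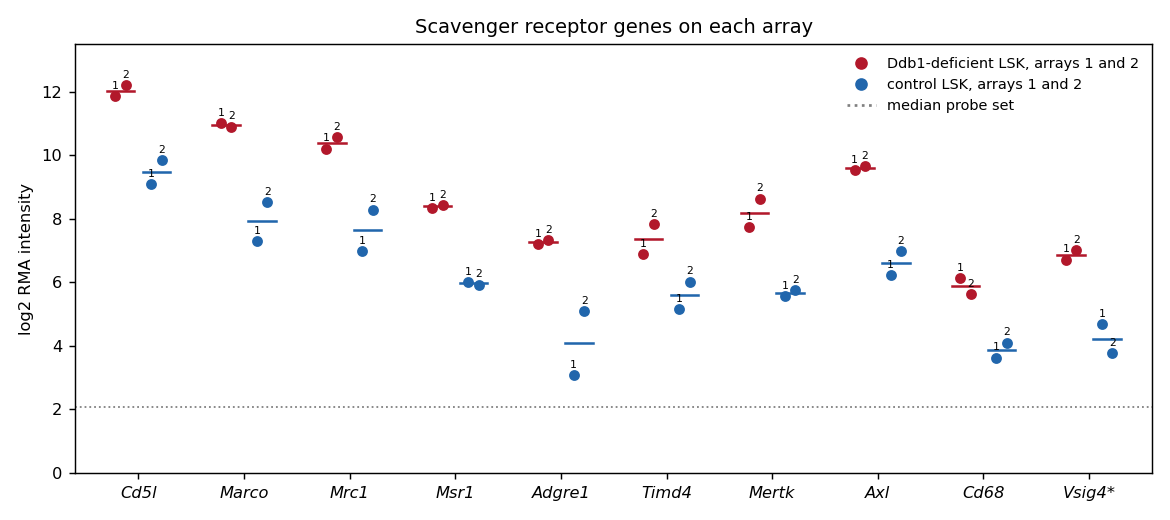
Log2 RMA intensity (vertical axis) of the probe set used for each gene, on Ddb1-deficient arrays (red, left) and control arrays (blue, right), with array numbers beside the points, group means as bars and the median probe set as a dotted line. Both red points lie above both blue points for every gene, and *Vsig4*, starred, is the gene whose probe set names a second locus.

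*Cd5l* encodes a secreted protein of macrophages, also called AIM, that is built of scavenger receptor cysteine-rich domains and is carried in the circulation with IgM. It was at 11.85 and 12.21 in Ddb1-deficient cells, against 9.09 and 9.84 in control cells. It was bright on every array, and the lower Ddb1-deficient array stood 2.01 above the higher control array. The difference of the means, 12.03 ± 0.26 in Ddb1-deficient and 9.46 ± 0.53 in control cells (SD, n = 2), was 2.57, or 5.93-fold.

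*Marco* and *Msr1* are class A scavenger receptors, trimeric membrane proteins with a collagen-like stalk that bind polyanions. *Marco* was at 11.01 and 10.90 in Ddb1-deficient cells, against 7.30 and 8.53 in control cells. The Ddb1-deficient arrays lay within 0.11 of each other while the control arrays were 1.23 apart, and the groups did not overlap. The means were 10.95 ± 0.08 in Ddb1-deficient and 7.92 ± 0.87 in control cells (SD, n = 2), a difference of 3.04 or 8.22-fold. The second *Marco* probe set, whose name marks it as shared by several transcripts, was dimmer at 3.32 and 4.28 in Ddb1-deficient cells and 2.20 and 2.28 in control cells. Its difference was 1.56, in the same direction, from control values near the median probe set.

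*Msr1* had 4 probe sets, more than any other of these genes. The brightest was at 8.33 and 8.44 in Ddb1-deficient cells, against 6.00 and 5.93 in control cells. Both groups were tight here, with SDs of 0.08 in Ddb1-deficient and 0.05 in control cells, and the difference was 2.42 or 5.34-fold. The other 3 probe sets differed in size but not in direction. The second by mean level was at 6.92 and 8.05 in Ddb1-deficient cells and 5.52 and 5.24 in control cells, a difference of 2.10. The third was at 6.50 and 7.29 in Ddb1-deficient cells and 5.66 and 4.77 in control cells, a difference of 1.68. The dimmest was at 6.12 and 5.96 in Ddb1-deficient cells and at 1.99 on both control arrays. These control values are below the median probe set, so that its difference of 4.05 rests on control values at the dim end of the scale. The 4 differences of *Msr1* thus ran from 1.68 to 4.05.

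*Mrc1*, the mannose receptor CD206, is a C-type lectin that clears glycoproteins with exposed mannose. Its values were 10.21 and 10.56 in Ddb1-deficient cells, against 6.98 and 8.29 in control cells. The control arrays were 1.31 apart, and the groups stayed 1.92 apart at their nearest values. The means were 10.38 ± 0.25 in Ddb1-deficient and 7.63 ± 0.93 in control cells (SD, n = 2), a difference of 2.75 or 6.72-fold.

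**Figure D2:**
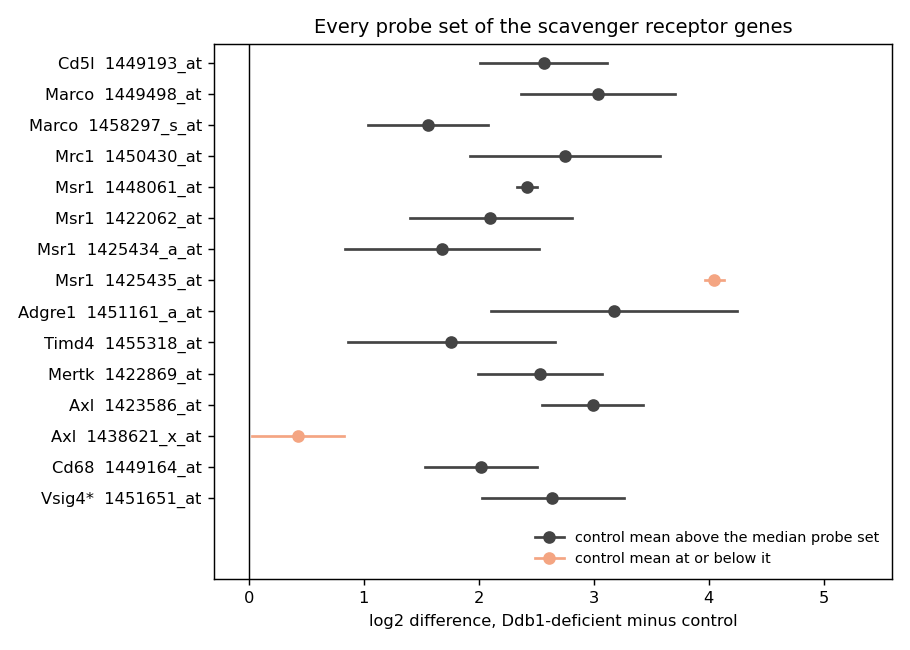
Log2 difference, Ddb1-deficient minus control (horizontal axis), for every probe set of the genes (rows). Points are differences of the group means, and bars run from the smallest to the largest difference between 1 Ddb1-deficient and 1 control array. All 15 probe sets lie above 0, and orange marks the *Msr1* and *Axl* probe sets whose control mean was at or below the median probe set.

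*Timd4* encodes TIM-4, a tethering receptor for phosphatidylserine on tissue macrophages. It was at 6.88 and 7.82 in Ddb1-deficient cells, against 5.16 and 6.02 in control cells. The groups were closest for this gene, with 0.86 between the lower Ddb1-deficient and the higher control array, which is no more than the 0.94 between the Ddb1-deficient arrays and the 0.86 between the control arrays. Its difference of 1.76, or 3.40-fold, was the smallest of the 9.

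*Mertk* and *Axl* are receptor tyrosine kinases of the TAM family, which bind apoptotic cells through the ligands Gas6 and, for MERTK, protein S. *Mertk* was at 7.74 and 8.63 in Ddb1-deficient cells, against 5.56 and 5.75 in control cells, a difference of 2.53 or 5.77-fold. Here the Ddb1-deficient arrays were the more spread, 0.89 apart against 0.19 between the control arrays. *Axl* was at 9.53 and 9.66 in Ddb1-deficient cells, against 6.23 and 6.98 in control cells. Its Ddb1-deficient values stood 2.55 above the nearest control value, the widest separation of the 9, and its difference was 2.99 or 7.96-fold. The second *Axl* probe set, marked as open to cross-hybridisation, was below the median probe set on all 4 arrays and differed by 0.43. *Tyro3*, the third TAM kinase, was covered only by probe sets that also name a second locus. The brighter was at 3.38 and 3.75 in Ddb1-deficient cells and 3.26 and 2.75 in control cells, a difference of 0.56 with only 0.12 between the nearest values of the groups.

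*Vsig4*, or CRIg, is a complement receptor of Kupffer cells that binds C3b and iC3b. Its shared probe set was at 6.71 and 7.02 in Ddb1-deficient cells, against 4.68 and 3.76 in control cells. The groups did not overlap, and the difference was 2.64 or 6.25-fold. Unlike 8 of the 9 counted genes, it was higher on control array 1 than on control array 2, by 0.92.

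*Adgre1* encodes F4/80, the adhesion receptor by which mouse macrophages are usually stained. It was at 7.21 and 7.32 in Ddb1-deficient cells, against 3.07 and 5.10 in control cells. The difference of 3.18, or 9.08-fold, was the largest of the 9 and had the widest spread in control cells, whose arrays were 2.03 apart (SD 1.44, n = 2). *Cd68*, a glycoprotein of the late endosome and lysosome in phagocytes, was at 6.14 and 5.63 in Ddb1-deficient cells, against 3.63 and 4.10 in control cells. The groups did not overlap, and the difference was 2.02 or 4.06-fold.

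The differences between arrays of 1 group were not alike in the 2 groups. The genes were chosen with results of these arrays known, so these differences are a description too. Genes read on the same arrays are not independent of each other. In Ddb1-deficient cells array 2 was above array 1 for 7 of 9 genes, with a median difference of 0.13. In control cells array 2 was above array 1 for 8 of 9 genes, with a median difference of 0.75. Over all genes the share with array 2 above array 1 was 51.3% in Ddb1-deficient and 49.5% in control cells. The median size of the gap was 0.35 for the 9 genes and 0.32 for all genes in Ddb1-deficient cells, and 0.75 for the 9 genes and 0.24 for all genes in control cells. Over the 11720 genes above the median probe set, as all 9 are, it was 0.47 in Ddb1-deficient and 0.33 in control cells. Beside these genes the gap of the 9 was smaller in Ddb1-deficient cells and larger in control cells. The control array 2 was thus the higher one for all but *Msr1*, whose control arrays were 0.07 apart. Since array 2 was the female sample in both groups, sex and sample cannot be told apart here. Within the male pair the median difference between Ddb1-deficient and control was 2.76, and within the female pair it was 2.37. All 9 genes were higher in the Ddb1-deficient array of each pair, from 1.72 for *Timd4* to 4.14 for *Adgre1* in males and from 1.53 for *Cd68* to 2.88 for *Mertk* in females.

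**Figure D3:**
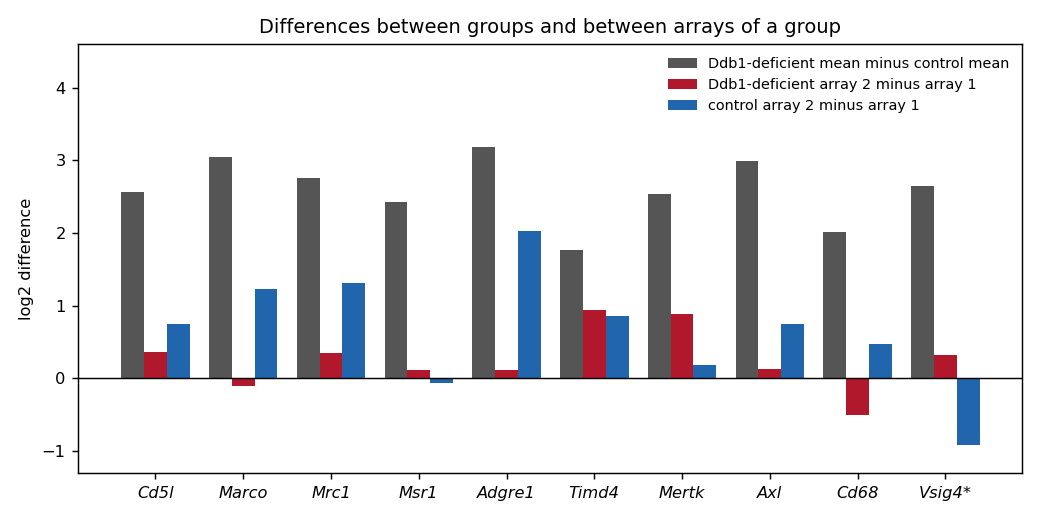
Log2 differences (vertical axis) for each gene between the group means (grey, Ddb1-deficient minus control), between the Ddb1-deficient arrays (red, array 2 minus array 1) and between the control arrays (blue, array 2 minus array 1). The grey bars exceed the blue and red bars for every gene, the blue bar of *Adgre1* reaches 2.03, and *Vsig4*, starred, is measured by a probe set that names a second locus.

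The profiles over the 4 arrays were compared as values centred on each gene's mean. The mean profile of the 9 genes was 1.17 and 1.42 on the Ddb1-deficient arrays and -1.71 and -0.87 on the control arrays. *Cd5l* followed it most closely, with a root mean square distance of 0.05, and *Adgre1* and *Timd4* were farthest, at 0.52 and 0.48. The closest pair was *Marco* and *Axl*, 0.19 apart, and the farthest was *Adgre1* and *Timd4*, 0.87 apart. The TAM kinases *Mertk* and *Axl* were 0.40 apart and the class A receptors *Marco* and *Msr1* 0.56 apart, so that genes of 1 receptor family were not the nearest in profile.

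Among the other genes above the median probe set, the 10 nearest to this mean profile, by the same distance over 4 arrays, were *Csf1r* (0.13), *Fpr1* (0.13), *Tgfbrap1* (0.14), *Arhgef12* (0.17), *C1qb* (0.18), *Adap2* (0.18), *Vcam1* (0.18), *Fcna* (0.18), *Ctsl* (0.18) and *Dab2* (0.19). *Csf1r*, the receptor for the macrophage growth factor CSF1, was at 11.57 and 11.79 in Ddb1-deficient cells and 8.98 and 9.52 in control cells. *Vcam1*, the adhesion molecule through which island macrophages hold erythroblasts, was at 10.75 and 11.06 in Ddb1-deficient cells and 8.28 and 8.65 in control cells. *Fcna*, a ficolin of the lectin complement pathway, was at 8.99 and 9.59 in Ddb1-deficient cells and 6.56 and 7.04 in control cells. Since the choice by profile fixes that the groups of these genes are apart, nothing is read from their separation. The second *Ctsl* probe set differed between the groups in the opposite direction from the first.

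In the annotation of the deposited table, receptor activity was listed for 6 of the 9 genes (*Marco*, *Mrc1*, *Msr1*, *Adgre1*, *Mertk* and *Axl*) and for 7.54% of all genes with terms. Integral to membrane was listed for 8 of them, all but the secreted *Cd5l*, and for 25.7% of all genes with terms. Scavenger receptor activity was listed for *Cd5l*, *Marco* and *Msr1*, among 31 genes in all (0.204%). Endocytosis was listed for *Mrc1* and *Msr1*, and transmembrane receptor protein tyrosine kinase activity for *Mertk* and *Axl*.

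The ligands that link phosphatidylserine to these receptors were less uniform. Of 7 bridging ligands, 4 were higher and 1 was lower on both Ddb1-deficient arrays than on either control array, the second of which held for 18.5% of all genes, and the median difference was 0.46. Genes of the lists that follow are counted as higher or lower in this way. *Gas6*, the ligand of the TAM kinases, was at 2.23 and 3.40 in Ddb1-deficient cells and 1.65 and 1.77 in control cells, and a second *Gas6* probe set differed in the opposite direction. *Pros1*, which encodes protein S, was at 4.27 and 5.13 in Ddb1-deficient cells and 4.23 on both control arrays, so that only Ddb1-deficient array 2 stood apart. *Apoe* was 1.61 higher and *Lgals3*, galectin-3, 0.71 higher in Ddb1-deficient cells. *Anxa1*, annexin A1, was 2.71 lower, with 6.39 and 6.23 in Ddb1-deficient cells and 8.85 and 9.20 in control cells. *Mfge8*, which bridges phosphatidylserine to integrins, was at 2.95 and 2.59 in Ddb1-deficient cells and 3.02 and 2.70 in control cells, and the groups overlapped.

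Of 19 further scavenger or uptake receptors measured, 12 were higher on both Ddb1-deficient arrays and 2 lower, with a median difference of 1.46. *Clec4f*, a Kupffer cell lectin, was 3.32 higher, and *Siglec1*, the sialoadhesin CD169, 3.10 higher. *Stab1*, a stabilin of sinusoids and macrophages, was 2.82 higher and *Cd163*, the haemoglobin-haptoglobin receptor, 2.74 higher. *Scarf1* was 2.11 higher and *Lrp1* 2.37 higher, the second with 5.48 and 2.70 in Ddb1-deficient cells and 1.65 and 1.78 in control cells, so that much of its difference lay on Ddb1-deficient array 1. The 2 lower genes were *Havcr2*, by 0.32, and *Olr1*, named only because it completes this count, whose values were below the median probe set on every array.

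Genes of the engulfment machinery itself differed little, with a median of 0.16 over 15 genes, 4 of them higher and 2 lower on both Ddb1-deficient arrays. *Itgb5*, the integrin chain that with *Itgav* receives Mfge8, was 3.22 higher, at 6.78 and 5.30 in Ddb1-deficient cells and 2.83 and 2.82 in control cells. *Abca1*, the lipid exporter, was 1.10 higher. *Dock1* was 0.44 and *Rac1* 0.16 higher, while the guanine exchange factor *Vav1* was 0.93 and *Elmo1* 0.33 lower.

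**Figure D4:**
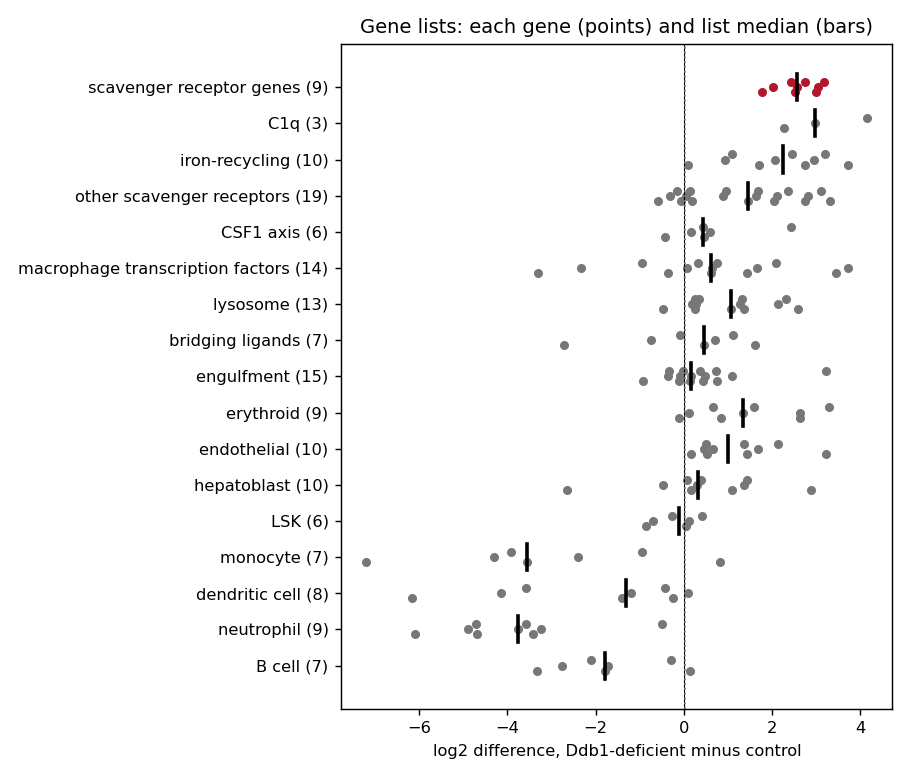
Log2 difference, Ddb1-deficient minus control (horizontal axis), of each gene (points) in 17 gene lists (rows, with the number of genes measured) and the list medians (vertical bars). The dotted line is the median of all genes at 0.03. The 9 scavenger receptor genes, in red, lie between 1.76 and 3.18, the medians of the C1q and iron-recycling lists are 2.97 and 2.25, and most neutrophil and monocyte genes lie below 0.

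Other lists, of genes linked to macrophages and to iron recycling, were set beside the members, and the cells that this RNA came from were not tested. The 3 chains of C1q, the complement recognition molecule made by macrophages, were all higher on both Ddb1-deficient arrays. *C1qa* was at 6.97 and 7.34 in Ddb1-deficient cells and 2.72 and 3.28 in control cells, a difference of 4.16. *C1qc* was 2.97 higher and *C1qb* 2.27 higher. All 10 genes of iron recycling were higher on both Ddb1-deficient arrays, with a median of 2.25, though *Hpx* was below the median probe set and 0.10 higher. The 6 with the largest differences were *Spic*, 3.71 higher, *Slc11a1*, 3.21 higher, *Hmox1*, the haem oxygenase, 2.96 higher, *Cd163*, *Vcam1*, 2.44 higher, and the iron exporter *Slc40a1*, 2.07 higher. Of a list of 15 fetal liver macrophage genes outside the members, which shares genes with these lists, 14 were higher on both Ddb1-deficient arrays with a median of 2.27. The exception was *Lyz2*, lysozyme, at 9.49 and 10.07 in Ddb1-deficient cells and 9.83 and 10.66 in control cells.

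Transcription factors of macrophages differed in both directions, with 7 of 14 higher, 3 lower and a median of 0.62. *Spic*, the factor that red pulp macrophages require in the mouse, was at 7.45 and 9.19 in Ddb1-deficient cells and 4.36 and 4.86 in control cells. *Maf* was 2.09 higher, *Tfec* 1.66, *Rxra* 1.42 and *Zeb2* 0.74 higher, though 1 of 5 *Zeb2* probe sets differed in the opposite direction. *Spi1*, which encodes PU.1, was at 5.82 and 4.50 in Ddb1-deficient cells and 5.49 and 4.20 in control cells, and the groups overlapped. *Irf8*, a factor of monocytes and dendritic cells, was 2.34 lower. *Bach2*, a transcriptional repressor that acts in lymphoid cells and on haem-response genes, was 3.31 lower. Of the CSF1 axis, *Csf1r* was 2.43 and *Csf2rb* 0.60 higher, *Csf3r*, the G-CSF receptor, was 0.43 lower, and 3 of 6 genes were higher on both Ddb1-deficient arrays. Of 13 lysosomal genes 8 were higher and 0 lower on both Ddb1-deficient arrays, with a median of 1.06, and the 2 brightest were *Laptm5*, 0.19 higher, and *Ctss*, cathepsin S, 1.32 higher.

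Markers of other cells moved with the same arrays, and their part in the values of the 9 genes was not tested. The summed intensity of the 9 genes on a linear scale was 8542 and 10144 in Ddb1-deficient cells and 1071 and 1953 in control cells. Of 9 erythroid genes 7 were higher on both Ddb1-deficient arrays, and their sum was 2942 and 3593 in Ddb1-deficient cells and 624 and 1471 in control cells. Like the 9 genes, 7 of them were higher on control array 2 than on control array 1, with a median gap of 0.99. *Slc4a1*, the band 3 anion exchanger, was at 10.26 and 10.41 in Ddb1-deficient cells and 6.49 and 8.90 in control cells. *Itgam*, the Mac-1 chain that lineage cocktails hold against macrophages, was at 1.46 and 1.78 in Ddb1-deficient cells and 1.64 and 1.56 in control cells, below the median probe set on every array.

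Of 10 endothelial genes 7 were higher on both Ddb1-deficient arrays, with a median of 1.01 and sums of 202 and 156 in Ddb1-deficient cells and 52.1 and 66.3 in control cells. The 2 with the highest mean were *Cdh5*, VE-cadherin, 2.14 higher, and *Stab2*, a stabilin of liver sinusoids, 1.67 higher. Of 10 hepatoblast genes 5 were higher and 2 lower, with sums of 720 and 972 in Ddb1-deficient cells and 229 and 264 in control cells and a median difference of 0.33. *Trf*, transferrin, was at 8.91 and 9.39 in Ddb1-deficient cells and 6.19 and 6.33 in control cells and made up most of the sums in Ddb1-deficient cells. *Alb* was 1.36 higher, and *Hnf4a*, a factor of hepatocytes, was 2.64 lower, though 1 of its 4 probe sets differed in the opposite direction. Of 8 megakaryocyte genes 5 were higher and 1 lower, *Pf4* by 2.47, and their sums were 741 and 731 in Ddb1-deficient cells and 263 and 261 in control cells. Of 8 stromal genes 3 were higher and 1 lower, and their sums of 34.6 and 43 in Ddb1-deficient cells and 47.1 and 37.9 in control cells overlapped, with 2 of the 8 genes above the median probe set in each group.

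Genes of other myeloid cells differed in the opposite direction from the 9 genes. Of 9 neutrophil genes 8 were lower and 0 higher on both Ddb1-deficient arrays, with a median of -3.76 and sums of 917 and 478 in Ddb1-deficient cells and 11804 and 15781 in control cells. *S100a8* was at 8.07 and 6.85 in Ddb1-deficient cells and 11.84 and 12.47 in control cells, and *S100a9* was 3.76 lower. Of 7 monocyte genes 5 were lower and 1 higher, with a median of -3.55, and *Plac8* was 2.39 lower. Of 8 dendritic cell genes 7 were lower and 0 higher, among them *H2-Aa*, the class II chain, by 6.16. Of 7 B cell genes 2 were lower on both arrays, and their sums were 3770 and 255 in Ddb1-deficient cells and 4063 and 6063 in control cells, with a median gap of 3.16 between the Ddb1-deficient arrays beside a median difference of -1.79 between the groups.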

How the data were processed

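RNA (20 ng) was amplified in 2 cycles and hybridised to Affymetrix mouse arrays, and the authors normalised them by RMA in GeneSpring 7. RMA is also the tool that the submitters' processing notes name. The deposited table holds the authors' linear RMA intensity per probe set, and the log2 of this intensity was used here. Deposited log2 columns, set by the authors relative to the control mean, and the deposited series matrix hold the same log2 values within 2e-06. A second deposited table of the authors' p-values and fold changes, with 8 columns of sample values, was not used. RMA sets the arrays to a common distribution, so that a shift of all genes cannot be seen, and it compresses differences of dim probe sets.

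The 64 control probe sets were left out. Of 45037 others, 37463 carried 1 gene name, 1460 several and 6114 none. Names were updated through a RefSeq gene table, which matched 34648 of the named probe sets and gave 4907 of them a new name. For each of the 20523 genes the probe set of highest mean level was kept. Groups came from the labels, 2 arrays each. Across all genes the groups were compared by limma (version 3.58.1, functions lmFit and eBayes, run in R 4.3.3), with no block and with Benjamini-Hochberg adjustment and a threshold of 0.05. The fit has 2 residual degrees of freedom, to which the prior adds 1.96, and the number of arrays limits the precision. This step was run on simulated data with as many genes, where the check was that fitted changes followed those put in. That check does not show whether 2 arrays a group can pass the threshold. Other steps used Python 3.11.15 with pandas 2.3.3 and numpy 2.4.6. The test of the methods, two-tailed with equal variance, was run as an alternative.

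The members and lists were chosen with earlier results of these data known. Named genes are the members, the targeted gene, up to 6 separated genes of each pathway list by size of difference with up to 2 of the opposite direction, the 2 with the highest mean in other lists, and the 10 nearest profiles. Exceptions chosen after their values were seen are *Olr1*, *Mfge8*, *Spi1*, *Tyro3*, *Hpx*, *Hnf4a*, *Lyz2*, *Kdm5d*, *Xist*, *Kit*, *Ly6a* and *Itgam*. Some genes of the lists are not reported here. Alternatives changed the probe set per gene, dropped shared or dim probe sets, took the series matrix values, centred or again normalised the arrays, left out each array, and changed the variance model, block, test and threshold. Promoters came from RefSeq (GRCm38.p6). Protein sequences were not used here.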

Additional observations from a re-analysis of the deposited data

How the results depend on the processing

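The median log2 difference of the 9 genes, 2.57 as reported, ranged from 2.19 to 2.94 when each array was left out in turn, and from 2.30 to 2.65 over the other alternatives, 1 of which, chosen after seeing the data, added the *Vsig4* probe set (2.61, with 10 of 10 genes separated). In all other alternatives the 9 genes stayed separate, with no control value reaching a Ddb1-deficient one. Of 99 values of single genes under the alternatives, 0 reversed and 7 moved by more than the spread between arrays. *Axl* was at 1.71 and *Marco* at 2.30 with the mean or median of their probe sets, and *Msr1* at 2.56 with the mean, 1.89 with the median and 2.52 after a second quantile normalisation. Leaving out 1 array moved *Adgre1* most, between 2.17 and 4.20.

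limma called 0 genes under its other settings, without each array (0 to 0), and at an adjusted p of 0.1. It gave 2247 genes and 9 members at an unadjusted p under 0.05, a threshold chosen after seeing the data. Of the 2247, 1006 were higher in Ddb1-deficient cells (4.90% of all genes). The test of the methods gave 1684 genes and 6 members unadjusted, with 916 genes higher (4.46% of all genes). Nothing is read from these counts of members, because these arrays chose the genes. After adjustment the test of the methods gave 2 genes, *4930551I15Rik* (0.07 higher) and *Kctd15* (-0.04), neither a member. This test takes each gene's variance from its own few values. A very small difference can therefore pass where the arrays of a group hardly differ, and nothing is read from these 2 genes. With the replicate number as a block, limma called 0 genes and 0 members. The deviations of same-numbered arrays correlated at -0.015 over all genes. These arrays share a number and, by *Xist* and *Kdm5d*, the sex, and the labels do not pair them. The identity between the members' proteins was not run. Dim probe sets, such as the second of *Axl* and the control values of the dimmest of *Msr1*, limit what can be read from their differences.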
